A study of Homo sapiens with 6 samples.

Results

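The genes of iron storage, uptake, export and control were examined by RNA sequencing in 6 libraries labelled HepG2, a human liver cancer line. They were FTH1, FTL, NCOA4, TFRC, STEAP3, SLC11A2, SLC40A1, HMOX1, ACO1 and IREB2, taken by symbol as 10 of the 27605 genes of the expression table. The control group (shNC, genotype label WT) and the knockdown group (shARHGEF2, genotype label ARHGEF2 knockdown) had 3 libraries each. ARHGEF2, which encodes an exchange factor for the GTPase RhoA, was knocked down with a lentivirus carrying a short hairpin RNA, and the study describes the cells as a stable knockdown. No drug and no change of iron supply is named for either group. The sources used here do not give the number of hairpins, cell clones or separate cultures, so the errors below measure only the spread between these libraries, which may be technical. The genes were chosen by the FPKM values of this contrast as well as by role, FTH1 and its pseudogenes being lower on average in shARHGEF2 cells. Their levels and differences are therefore given as a description, with no p-value, and nothing is read from how many of them the fit over all genes called.

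Cells store iron inside ferritin, a hollow protein shell built from heavy chains (FTH1) and light chains (FTL). Iron enters through the transferrin receptor (TFRC), is reduced in endosomes by STEAP3, passes into the cytosol through SLC11A2 (DMT1), leaves the cell through ferroportin (SLC40A1), and is freed from stored ferritin when NCOA4 carries ferritin to the lysosome. Iron regulatory proteins, encoded by ACO1 (IRP1) and IREB2 (IRP2), bind hairpins called iron-responsive elements when iron is scarce. In the 5′ untranslated region of ferritin mRNAs this blocks translation, and in the 3′ untranslated region of TFRC it protects the mRNA from decay. Ferritin protein can thus change without its mRNA, and only mRNA was measured here.

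The hairpins are printed because they are what FTH1, FTL, SLC40A1 and TFRC share and the other members lack in this search. The motif, on the transcript strand, was a C, then NNNNN, the loop CAGTGN and NNNNN again, where the 5 bases before the loop can pair (A with T, G with C or G with T) with the 5 bases after it. It was searched in 1 transcript per gene of GENCODE 29. The loop is in capitals, each sequence is 30 bases long, and positions are on GRCh38. The letters A to D only order the TFRC matches of this search along the transcript. They are not established element names, and an element that departs from the motif would be missed.
FTH1, 5′ untranslated region, chr11:61967573-61967602, minus strand: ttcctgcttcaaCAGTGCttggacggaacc
FTL, 5′ untranslated region, chr19:48965335-48965364, plus strand: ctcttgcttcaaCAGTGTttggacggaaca
SLC40A1, 5′ untranslated region, chr2:189580660-189580689, minus strand: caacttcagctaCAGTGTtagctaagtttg
TFRC, 3′ untranslated region, site A, chr3:196050978-196051007, minus strand: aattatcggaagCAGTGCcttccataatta
TFRC, 3′ untranslated region, site B, chr3:196050574-196050603, minus strand: cattatcgggagCAGTGTcttccataatgt
TFRC, 3′ untranslated region, site C, chr3:196050509-196050538, minus strand: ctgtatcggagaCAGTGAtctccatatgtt
TFRC, 3′ untranslated region, site D, chr3:196050462-196050491, minus strand: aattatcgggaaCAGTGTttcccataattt
Among 19659 protein-coding genes, 22 (0.112%) held the motif in the 5′ and 120 (0.61%) in the 3′ untranslated region. NCOA4, STEAP3, SLC11A2, HMOX1, ACO1 and IREB2 had no match in the transcript searched, which says only that these letters are absent there.

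The targeted gene followed the labels. ARHGEF2 stood at 13.0, 14.4 and 13.9 FPKM (fragments per kilobase of transcript scaled to library size) in shNC and at 4.25, 4.0 and 4.82 FPKM in shARHGEF2 libraries, with a log2 difference of -1.47 (limma, standard error 0.11, adjusted p = 0.00244). With the library number as a block its adjusted p in limma was 0.0716, and with no filter on low values 0.0701, at the same difference. Depth was estimated at 19720000 to 22940000 read pairs per library. Markers of the labelled cell type were largely missing. Of 16 hepatocyte and HepG2 markers, 7 (ALB among them) were not in the table and only VTN reached 1 FPKM. AFP, APOA1, SERPINA1 and HNF4A stayed at or below 0.248 FPKM, and the 9 listed markers summed to 5.92 to 6.24 FPKM in shNC and 6.70 to 7.64 FPKM in shARHGEF2. Of 4 fibroblast markers, LUM, DCN and COL1A1 passed 1 FPKM, while COL1A2 was near 0 (0 to 0.0453 FPKM). The fibroblast list summed to 35.4 to 47.8 FPKM in shNC and 33.8 to 40.0 in shARHGEF2. Of 4 immune markers CD68 alone passed 1 FPKM, at 60.4 to 87.8 FPKM, while PTPRC and CD3E were near 0. Of 4 endothelial and 4 red cell markers, 3 and 2 were in the table and all stayed under 1 FPKM. The endothelial sum was 0.561 to 0.640 FPKM in shNC and 0.775 to 0.866 FPKM in shARHGEF2, and the red cell sum 0.163 to 0.335 and 0.267 to 0.560 FPKM. The part of cell identity in the iron gene values was not tested.

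Ferritin mRNA was among the most abundant in these cells, and FTH1 was lower on average after the knockdown while FTL was level. FTH1 (ENSG00000167996, chr11:61959718-61967660, minus strand) encodes the heavy chain, which carries the ferroxidase activity. It measured 5185, 3702 and 5022 FPKM in shNC libraries 1 to 3 and 4042, 3875 and 2932 FPKM in shARHGEF2 libraries 1 to 3. The groups overlapped, since shNC library 2 lay below shARHGEF2 libraries 1 and 2. The means were 4636 ± 814 and 3616 ± 598 FPKM (SD, n = 3 each), a ratio of 0.78. On the log2(FPKM + 1) scale, used for every log2 difference here, shARHGEF2 minus shNC came to -0.36 with a standard error of 0.16. In bulk samples, fewer cells of a type and less RNA per cell cannot be told apart. The difference ranged from -0.51 without shNC library 2 to -0.21 without shARHGEF2 library 3, and was -0.14 after quantile normalization.

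FTL (ENSG00000087086, chr19:48965301-48966878, plus strand) encodes the light chain, which helps iron to mineralise inside the shell. It measured 3826, 3287 and 3798 FPKM in shNC and 3784, 3798 and 3620 FPKM in shARHGEF2. All 6 libraries lay in 1 narrow range, with a log2 difference of 0.04 (standard error 0.09), which quantile normalization moved to 0.21. FTH1 and FTL held ranks 7 to 15 and 8 to 13 among all genes in the 6 libraries, and together made up 2.03% to 2.70% of a library's FPKM sum. The 2 chains did not keep a fixed ratio. FTH1 divided by FTL was 1.35, 1.13 and 1.32 in shNC and 1.07, 1.02 and 0.81 in shARHGEF2 libraries. These ratios did not overlap between the groups, by a narrow margin, and FTH1 was below FTL in 1 library, shARHGEF2 3. The lower FTH1 was part of the choice of genes, so the ratio is a description too.

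**Figure D1:**
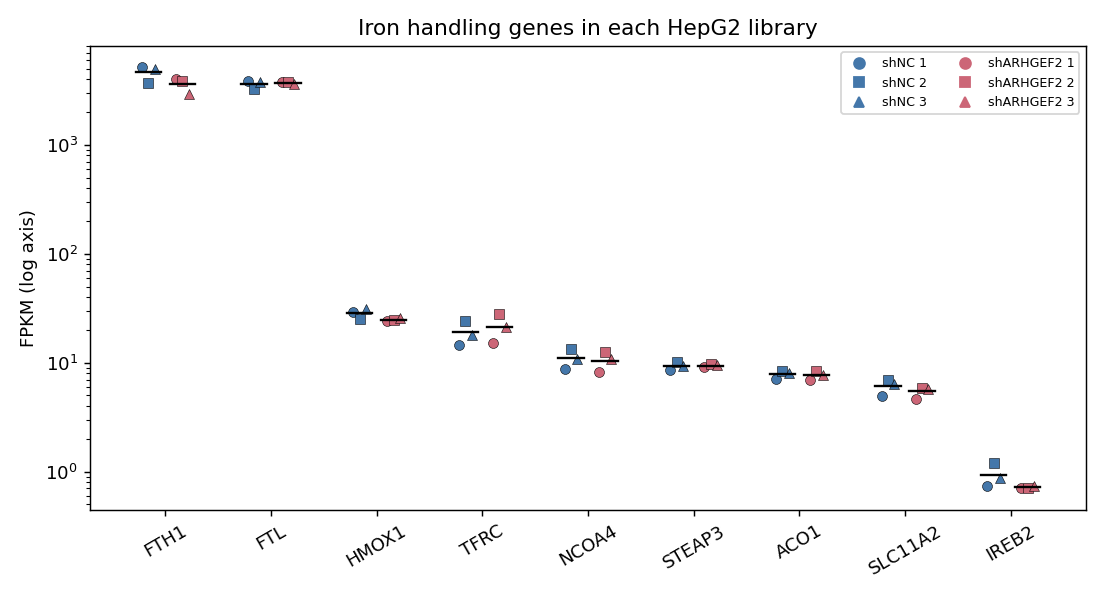
FPKM on a log axis (vertical) of the iron handling genes (horizontal, by mean level) in the 3 shNC (blue) and 3 shARHGEF2 (red) libraries; symbols mark the library number and black lines the group means. FTH1 and FTL stand at 2932 to 5185 FPKM, the next gene, HMOX1, at 24.2 to 30.9 FPKM, and every gene's groups overlap; SLC40A1, at 0 in 5 libraries, is not drawn.

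FTH1 has many pseudogenes, most of them processed copies made from its spliced mRNA, and 15 were listed in the table. Their transcripts of 280 to 930 bases were 73.9% to 97.6% identical to the FTH1 mRNA. The 7 that averaged 10 FPKM or more shared 24.5% to 40.8% of their 50-base windows exactly with FTH1. The 5 between 0.5 and 10 FPKM shared 12.6% to 27.8%, which overlaps the range of those 7. The 3 under 0.5 FPKM shared 0% to 3.7%. How reads that match several copies were assigned is not given in the sources used here, so FTH1 reads may be listed under a pseudogene and each value below is uncertain. Summed, the pseudogenes came to 522, 445 and 438 FPKM in shNC and 399, 405 and 364 FPKM in shARHGEF2. The groups did not overlap, the ratio of means was 0.832, and the sum was 8.71% to 12.4% of FTH1 in every library. FTH1 and its pseudogenes together measured 5707, 4146 and 5459 FPKM against 4441, 4280 and 3296 FPKM, so the overlap seen for FTH1 remained when the copies were pooled.

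Of the 12 pseudogenes with a mean of at least 0.5 FPKM, 11 had a lower average in shARHGEF2, and in 8 of them the groups did not overlap. Over all 12291 genes at that level, 9.17% were lower without overlap. These genes are part of what led to the choice, and their values are not independent of each other. The most abundant, FTH1P2, FTH1P8 and FTH1P7, had means of 138, 111 and 102 FPKM in shNC and 121, 82.3 and 87.9 FPKM in shARHGEF2. FTH1P11, FTH1P23 and FTH1P20 had log2 differences of -0.32, -0.37 and -0.44, close to that of FTH1. FTH1P3 (-0.54), FTH1P12 (-0.63), FTH1P16 (-0.30) and FTH1P15 (-0.16) were at 5.83 FPKM or less in either group.

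A pair of pseudogenes departed from FTH1. FTH1P5 (chr6:50912712-50913256, minus strand, 95.2% identical) measured 13.3, 9.61 and 8.22 FPKM in shNC and 1.56, 1.16 and 1.95 FPKM in shARHGEF2. Its log2 difference of -2.14 (standard error 0.19) was far larger in size than that of FTH1, and its groups were widely separated. FTH1P10 (chr5:17353695-17354624, minus strand, annotated as transcribed, 96.3% identical) measured 36.5, 5.32 and 7.80 FPKM in shNC and 28.2, 30.3 and 26.8 FPKM in shARHGEF2. It was the only one of the 12 with a higher average (1.20, standard error 0.72), with shNC library 1 above all shARHGEF2 libraries and the other shNC libraries far below them. Without FTH1P10 the pseudogene sum was 485, 440 and 430 FPKM against 370, 375 and 337 FPKM.

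**Figure D2:**
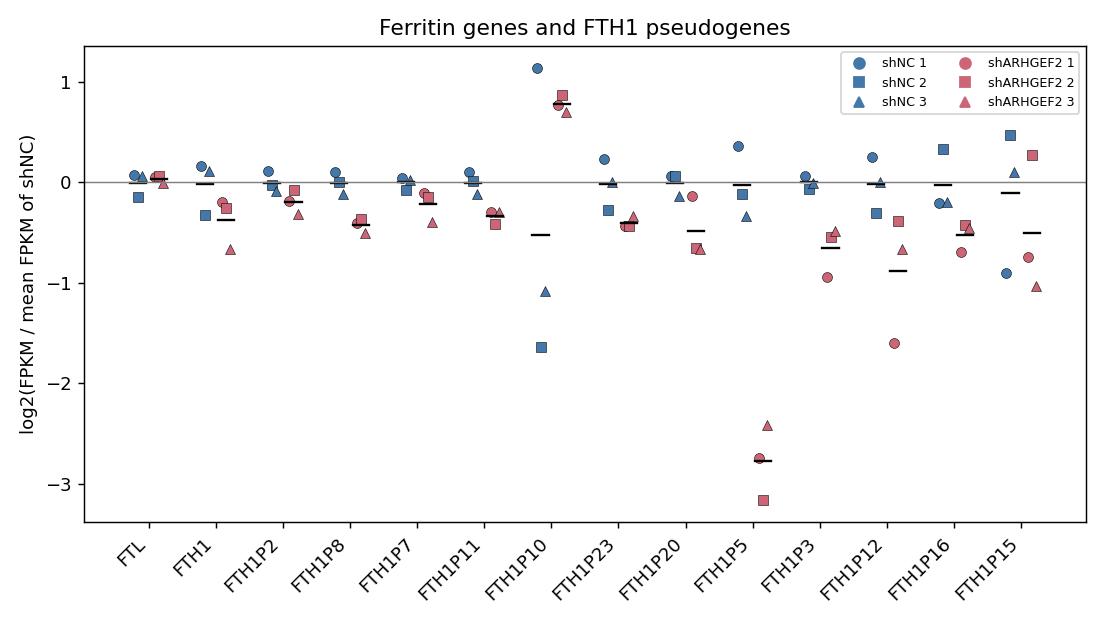
log2 of FPKM over the mean FPKM of the 3 shNC libraries (vertical) for FTL, FTH1 and the 12 FTH1 pseudogenes with a mean of at least 0.5 FPKM (horizontal); blue points are shNC and red points shARHGEF2 libraries, symbols mark the library number and black lines the means of the plotted values. FTL lies at the zero line, 11 of the 12 pseudogenes average below it in shARHGEF2, FTH1P5 farthest, and FTH1P10 is spread over its shNC libraries from 5.32 to 36.5 FPKM.

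For the genes of iron uptake and ferritin turnover, libraries of the same group differed by more than the groups did. TFRC (ENSG00000072274, chr3:196027183-196082189, minus strand) measured 14.5, 24.2 and 18.1 FPKM in shNC and 15.2, 27.8 and 21.4 FPKM in shARHGEF2. The groups overlapped almost fully, and the log2 difference was 0.16 with a standard error of 0.25. That difference came to -0.04 without shARHGEF2 library 2 and to 0.38 without shARHGEF2 library 1. With the library number as a block its standard error was 0.09. TFRC was higher in shARHGEF2 than in shNC at each library number, but the numbers were not taken to pair the libraries. STEAP3 (ENSG00000115107, chr2:119223831-119265652, plus strand), the endosomal ferrireductase, kept to 8.58 to 10.1 FPKM in shNC and 9.07 to 9.69 FPKM in shARHGEF2 (0.01, standard error 0.10). SLC11A2 (ENSG00000110911, chr12:50979401-51028566, minus strand) measured 4.97, 6.87 and 6.31 FPKM in shNC and 4.65, 5.90 and 5.78 FPKM in shARHGEF2 (-0.13, standard error 0.14). NCOA4 (ENSG00000266412, chr10:46005088-46030714, minus strand) measured 8.70, 13.5 and 10.7 FPKM against 8.15, 12.4 and 10.8 FPKM (-0.06, standard error 0.18). In each of these 4 genes the groups overlapped.

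TFRC, NCOA4, STEAP3, SLC11A2 and ACO1, 5 of the 10 members, were lowest in library 1 and highest in library 2 of both groups. Base composition moved with the same libraries. Over the fifth of genes with the lowest GC content of their transcripts (23.1% to 43.5%), the median deviation from the mean of the 6 libraries was -0.11, 0.18 and -0.03 on the log2 scale in shNC 1 to 3 and -0.19, 0.14 and 0.02 in shARHGEF2 1 to 3. The GC content was 41.5% for TFRC, 46.0% for NCOA4, 46.7% for SLC11A2, 47.7% for ACO1 and 57.6% for STEAP3. NCOA4, SLC11A2 and ACO1 lie in the fifth of 43.5% to 48.8%. Its medians were -0.09 and 0.14 in shNC 1 and 2, and -0.12 and 0.07 in shARHGEF2 1 and 2. STEAP3 lies in the fifth of 54.4% to 59.8%, where library 2 was lowest in both groups (-0.03 in shNC and -0.02 in shARHGEF2). The order seen for STEAP3 was thus not that of genes of similar GC content. TFRC deviated by -0.42, 0.29 and -0.11 in shNC and by -0.35, 0.48 and 0.12 in shARHGEF2. Removing a trend on GC content from each library took the standard error of the TFRC difference from 0.25 to 0.16 and that of ACO1 from 0.11 to 0.07, with TFRC at 0.19. IREB2, with 39.8% the lowest GC content of the members, shared the order in shNC but not in shARHGEF2, where library 2 was lowest and library 3 highest. FTH1 (53.3% GC) did not share the pattern. Its difference stayed at -0.36 after the trend was removed, and its standard error went from 0.16 to 0.19. The labels give no preparation or run for the libraries, and the cause of the pattern was not tested.

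**Figure D3:**
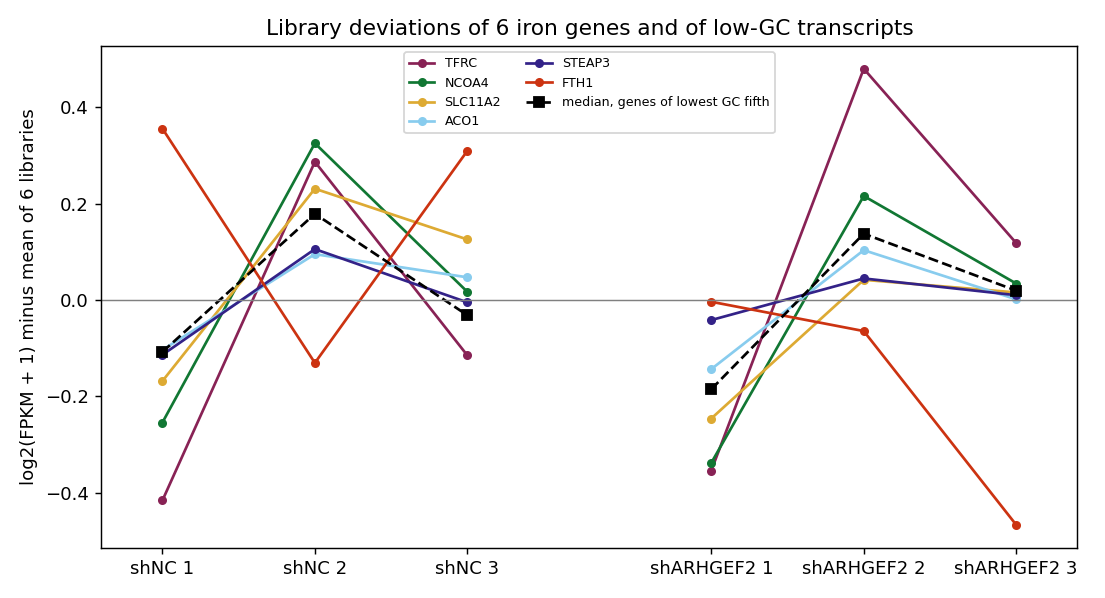
Deviation of log2(FPKM + 1) from the mean of the 6 libraries (vertical) in each library (horizontal) for FTH1, TFRC, NCOA4, SLC11A2, ACO1 and STEAP3, with the median of the genes of lowest GC content as a dashed line. Library 1 is lowest and library 2 highest in both groups for the 5 genes other than FTH1 and for the low-GC median, and TFRC runs from -0.42 to 0.48; FTH1 is highest in shNC 1 and lowest in shARHGEF2 3.

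The iron regulatory proteins were unequal in level. ACO1 (ENSG00000122729, chr9:32384603-32454769, plus strand), whose product is a cytosolic aconitase when it holds an iron-sulphur cluster and IRP1 when it does not, measured 7.13, 8.33 and 8.02 FPKM in shNC and 6.91, 8.38 and 7.74 FPKM in shARHGEF2 (-0.03, standard error 0.11). IREB2 (ENSG00000136381, chr15:78437431-78501456, plus strand), whose product IRP2 is degraded when iron is plentiful, measured 0.739, 1.201 and 0.865 FPKM in shNC and 0.706, 0.700 and 0.742 FPKM in shARHGEF2. Its shARHGEF2 libraries were close together and shNC library 1 fell just inside their range. Its log2 difference of -0.17 (standard error 0.12) became -0.32 with a pseudocount of 0.1, since its level is about that of the 1 FPKM added. HMOX1 (ENSG00000100292, chr22:35380361-35394214, plus strand), heme oxygenase 1, frees iron from heme and is induced by oxidative stress. It measured 29.3, 25.1 and 30.9 FPKM in shNC and 24.2, 24.8 and 25.5 FPKM in shARHGEF2 (-0.18, standard error 0.10). The groups touched only through shNC library 2. The exporter SLC40A1 (ENSG00000138449, chr2:189560579-189583758, minus strand) was listed at 0 in 5 libraries and at 0.0120 FPKM in shNC library 3, so it was left out of the fit.

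By mean level the order was FTH1, FTL, HMOX1, TFRC, NCOA4, STEAP3, ACO1, SLC11A2, IREB2 and SLC40A1. Neighbours whose ranges over the 6 libraries overlapped were FTH1 and FTL, HMOX1 and TFRC, and NCOA4 and STEAP3, and in each such pair the first was higher in 5 of 6 libraries. Of the 9 members fitted, 6 had a lower and 3 a higher average in shARHGEF2 (50.4% and 49.6% of all genes), with a median log2 difference of -0.06 against -0.0016 over all genes. The limma fit called 0 of the 9 at an adjusted p under 0.05, and 0.277% of all genes. No member had an unadjusted p under 0.05 (13.7% of all genes), and none had groups without overlap (20.5% of all genes). The choice of genes used this contrast, so these counts are a description and nothing is read from them.

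Among genes averaging 10 FPKM or more, those whose profile over the 6 libraries was most like FTH1 were NCAPH2, DUS1L, RIN1, SPR and LSS. Pearson's r of log2(FPKM + 1) with FTH1 ran from 0.952 for LSS to 0.983 for NCAPH2, the highest of 3610 genes compared. With 6 libraries as points, which share their depth and base composition, these values are a description. NCAPH2 measured 27.4, 23.7 and 26.2 FPKM in shNC and 24.8, 24.2 and 22.4 FPKM in shARHGEF2, the same order of libraries as FTH1 with a much smaller range.

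The wider iron pathway was then compared, with 104 further genes in 10 lists. Of these, 5 (TF, HEPH, FTMT, FTHL17 and HAMP) were not in the table, 12 were below 0.5 FPKM on average and 87 were tested in the limma fit over all 12291 genes. The fit called 0 of the 87. An unadjusted p under 0.05 was found for 5 of them (BMP6 and SRXN1 higher, TFR2, ABCB10 and CPOX lower), against 13.7% of all genes. The averages of log2(FPKM + 1) were higher in 43 and lower in 44. The groups did not overlap for 19, or 21.8%, against 20.5% of all genes. In simulated data of this design, with noise drawn independently for each gene, no change of 0.5 on the log2 scale was called. Of 200 changes of 1, 149 were called. The real libraries have deviations shared across genes of like base composition. The simulation left these out, so its limits may not carry over to these data.

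BMP6 had the largest difference of the 87. It encodes the secreted signal by which liver cells are told to make hepcidin, the hormone that degrades ferroportin. BMP6 (chr6:7726797-7881422, plus strand) measured 35.3, 42.1 and 40.9 FPKM in shNC and 55.4, 60.9 and 58.2 FPKM in shARHGEF2. All 3 shARHGEF2 libraries lay above all 3 shNC libraries. The ratio of means was 1.48 and the log2 difference 0.55 (limma, standard error 0.10, adjusted p = 0.0721, and 0.0569 to 0.368 over 15 alternatives), which missed the threshold. Downstream of BMP6, hepcidin itself (HAMP) was not in the table, the transducer SMAD1 stood at 0.89 to 1.62 FPKM (log2 difference -0.10, but 0.03 without shNC library 2) and the target ID1 at 368 to 496 FPKM (-0.07, but 0.07 without shARHGEF2 library 2). ERFE, a secreted hormone that lowers hepcidin, measured 2.73, 3.80 and 2.78 FPKM in shNC and 6.01, 3.78 and 3.40 FPKM in shARHGEF2 (0.38, adjusted p = 0.438 in limma), a difference carried largely by shARHGEF2 library 1. Of the 14 genes of this axis tested, 8 had a higher and 6 a lower average, with a median of 0.07.

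Heme synthesis uses much of a cell's iron, and 6 of its 8 tested enzymes had lower averages in shARHGEF2, with a median log2 difference of -0.21. None was called. ALAS1, which starts the pathway and sets its rate in non-erythroid cells, was on the other side, with 38.3, 38.1 and 41.6 FPKM in shNC and 42.4, 43.6 and 45.7 FPKM in shARHGEF2 (0.15, adjusted p = 0.47 in limma). ALAD, the next enzyme, had overlapping groups (0.06). Of the later enzymes, CPOX measured 6.31, 7.19 and 6.73 FPKM in shNC and 5.22, 5.04 and 5.33 FPKM in shARHGEF2 (-0.32, adjusted p = 0.238 in limma, and 0.102 to 0.514 over 15 alternatives). PPOX measured 5.64, 5.75 and 5.93 FPKM against 4.77, 5.09 and 4.37 FPKM (-0.24, adjusted p = 0.376 in limma). FECH, which places iron into the ring, measured 2.53, 3.29 and 2.62 FPKM against 2.22, 2.34 and 2.07 FPKM (-0.24, adjusted p = 0.433 in limma). CPOX, PPOX, FECH and UROD were among the 5 that were lower without overlap and ALAS1 was higher without overlap. Thus 75% of the list had separate groups, against 20.5% of all genes (9.17% lower and 11.3% higher). This was the highest share of any list, and over all pathway lists together it was 21.8%. The lists were chosen with earlier results of these data known, and the 8 genes may not be independent of each other. The share is therefore a description, and a shift of heme synthesis as a whole was not tested. UROD and FECH fall outside the rule by which other genes were named and were added after their values were seen. ALAS2, the form of red cell precursors, stayed at or below 0.047 FPKM.

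**Figure D4:**
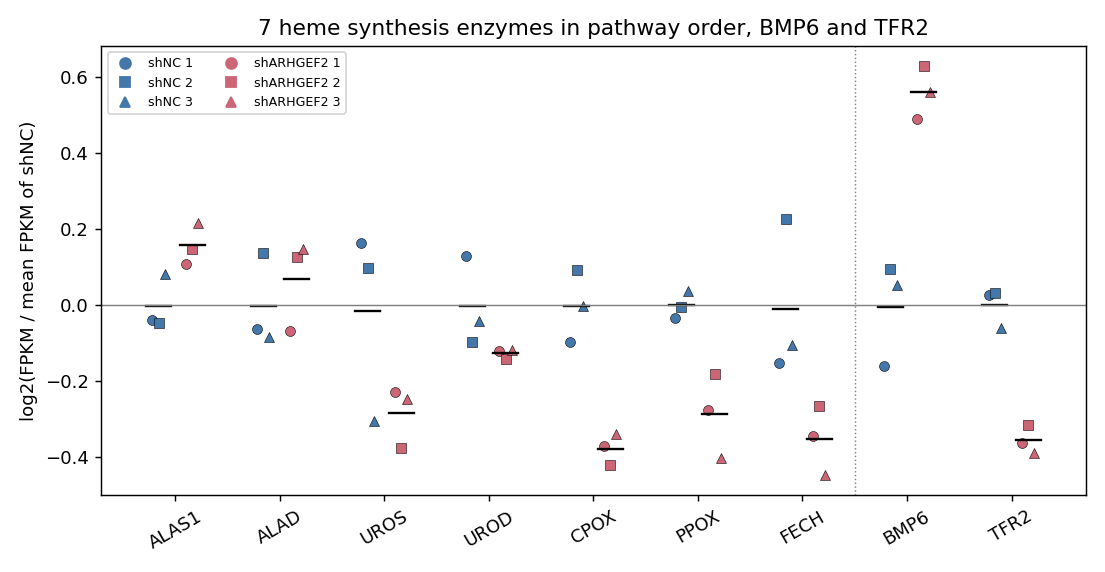
log2 of FPKM over the mean FPKM of the 3 shNC libraries (vertical) for 7 heme synthesis enzymes in pathway order, then BMP6 and TFR2 (horizontal); blue points are shNC and red points shARHGEF2 libraries, symbols mark the library number and black lines the means of the plotted values. ALAS1 and BMP6 are higher and UROD, CPOX, PPOX, FECH and TFR2 lower in all 3 shARHGEF2 libraries than in any shNC library, and no gene passed the adjusted threshold.

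In the remaining lists no tested gene was called. Among uptake and reduction genes, TFR2, a second transferrin receptor that senses iron in hepatocytes, measured 2.74, 2.74 and 2.57 FPKM in shNC and 2.09, 2.16 and 2.05 FPKM in shARHGEF2 (-0.25, adjusted p = 0.36 in limma). SCARA5, a ferritin receptor, was higher without overlap, at 6.15 to 6.85 FPKM in shNC and 6.87 to 8.13 FPKM in shARHGEF2 (0.22), and the zinc and iron importer SLC39A8 (0.21) and the metalloreductase STEAP1 (-0.24) overlapped. All 4 tested ferritin partners had log2 differences below 0, as did 50.4% of all genes. They ran from -0.09 to -0.01 and included the iron chaperones PCBP1 (-0.09) and PCBP2 (-0.08). PCBP1 alone was lower without overlap, and TAX1BP1 had a mean of 2.25 FPKM in each group. Of the genes listed with the iron regulatory proteins, FBXL5, which marks IRP2 for degradation, had a log2 difference of -0.10 and CIAO2A one of -0.15. Neither gene of iron oxidation and export in the table, CP and HEPHL1, passed 0.5 FPKM on average.

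Among mitochondrial transporters, ABCB10 measured 2.32, 3.71 and 2.49 FPKM in shNC and 1.60, 1.99 and 2.11 FPKM in shARHGEF2 (-0.39, adjusted p = 0.334 in limma), with no overlap. Without shNC library 2 its difference was -0.24. ABCB8 (0.10) and SLC25A39 (-0.09) overlapped. Of 23 genes of iron-sulphur cluster assembly, 9 had a higher and 14 a lower average. CIAO2B (0.16) was higher without overlap, FDX2 (-0.18) was lower without overlap, and BOLA3 (-0.20) overlapped. For heme transport and breakdown, 6 of 9 had higher averages, among them the heme transporter SLC48A1 (0.15, no overlap) and the biliverdin reductase BLVRB (0.14), while SLC46A1 (-0.11, but 0.03 without shNC library 2) and HMOX2 (-0.05, but 0.08 without shARHGEF2 library 2 and above 0 without shNC library 1) changed direction with single libraries. Among 11 genes of glutathione metabolism and defence against ferroptosis, a form of cell death driven by iron and lipid peroxidation, SRXN1 measured 44.2, 47.0 and 52.5 FPKM in shNC and 55.2, 61.5 and 58.5 FPKM in shARHGEF2 (0.28, adjusted p = 0.249 in limma). GCLM, a subunit of the enzyme that limits glutathione synthesis, had a difference of 0.30 (adjusted p = 0.388 in limma). ACSL4 (-0.31) and the cystine importer SLC7A11 (-0.17) were spread widely within each group, ACSL4 from 6.41 to 12.01 FPKM in shNC and from 4.22 to 10.0 FPKM in shARHGEF2. Both have low GC content (43.4% and 38.6%) and were lowest in library 1 and highest in library 2 of both groups.

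**Figure D5:**
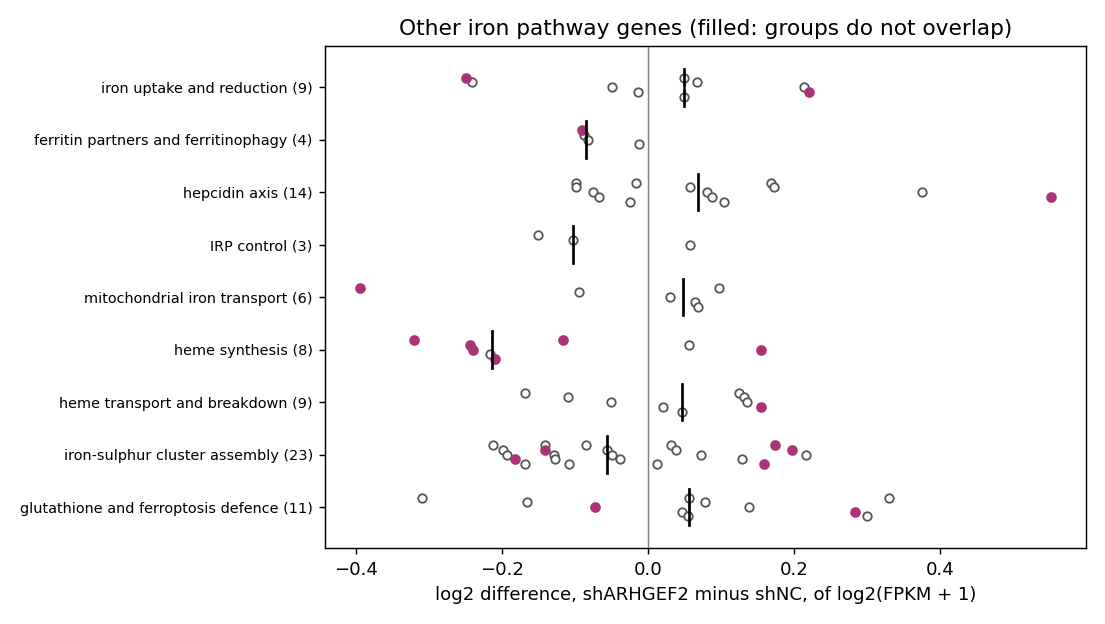
log2 difference, shARHGEF2 minus shNC (horizontal), of the 87 tested genes of the other iron pathway lists (vertical, with the number of genes); each point is a gene, filled where the libraries of the groups do not overlap, and black lines are list medians. The points lie on both sides of 0 in most lists, BMP6 is farthest to the right at 0.55 and ABCB10 farthest to the left at -0.39, and the heme synthesis median is -0.21.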

How the data were processed

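RNA of 6 libraries (shNC and shARHGEF2, 3 each, grouped by GEO label) was purified on oligo(dT) and made into strand-marked libraries. Per the labels, the submitters' processing notes name cutadapt 1.9, HISAT2 2.0.4, UMI-tools, StringTie 1.3.4d, DESeq2, edgeR and hg19, with no role or order. The deposited values are FPKM per gene as the authors computed them. The authors' columns of group comparisons (fold changes and p-values) were not used.

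Low FPKM values were whole multiples of 1 read within 0.1 for 38.7% to 40.7% of values (20% by chance), so read counts were not recovered and no count test was run. Depth was estimated from their spacing. Precision rests on 3 libraries per group.

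limma 3.58.1 in R 4.3.3 was fitted to log2(FPKM + 1) for the 12291 genes that averaged 0.5 FPKM or more, with trend and robust eBayes (statmod 1.5.0) and Benjamini-Hochberg adjustment at 0.05. It was tested on simulated data with independent noise per gene, where 0 genes were called without a change. Deviations shared across genes were not simulated. Members and lists were chosen with earlier results of these data known. Named were all members, FTH1 pseudogenes of at least 0.5 FPKM, per list up to 2 higher and 2 lower genes of smallest p with at least 1 FPKM, and the 5 genes most like FTH1. Some genes that this rule names are not reported here. Positions, GC content and sequences came from GENCODE 29 on GRCh38, matched by identifier and not by coordinate (94.7% of 112516 transcripts). Tables and plots used Python 3.11.15, pandas 2.3.3, numpy 2.4.6, Biopython 1.88 and matplotlib 3.10.9. The alternatives were other pseudocounts, filters and scalings, no trend, a replicate block and each library left out. GC detrending (loess, span 0.3) and the pseudogene sum without FTH1P10 were added after the data were seen.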

Additional observations from a re-analysis of the deposited data

How the results depend on the processing

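The number of genes called over the whole table, 34, depended on the settings. It was 0 with the replicate block, 1 with no filter on low values, 54 with at least 1 FPKM in 3 or more libraries, 19 after quantile normalization, 7 with median ratio scaling (4 higher and 3 lower, against 24 and 10) and 7 with no trend and no robust estimation. Leaving out 1 library gave 6 to 102 calls: 13, 14 and 102 without shNC library 1, 2 or 3, and 12, 15 and 6 without shARHGEF2 library 1, 2 or 3. The cause was not tested. The other 3 settings gave 39, 39 and 48 calls. In all 15 alternatives 0 of the pathway genes and 0 of the members were called. The FTH1 difference stayed below 0 in all 14 of its alternatives (-0.51 to -0.14). Among the 13 alternatives of each other member, TFRC, NCOA4 and ACO1 kept their direction in 11, STEAP3 in 9 and FTL in 12 (-0.03 without shNC library 2), while HMOX1, SLC11A2 and IREB2 kept it in 13. Of the pathway genes named, SLC46A1, SMAD1, ID1 and HMOX2 changed direction when 1 library was left out.

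Libraries with the same number in both groups deviated together with correlations of 0.184, 0.159 and -0.105 for numbers 1 to 3. Not every library correlated best with its own number, so the numbers were not taken to pair the libraries. With the replicate block the FTH1 difference was -0.36 (standard error 0.17). The standard error went from 0.25 to 0.09 for TFRC, from 0.18 to 0.09 for NCOA4 and from 0.31 to 0.105 for ACSL4. No gene of the whole table was called with the block, so 0 calls among pathway genes say nothing of their stability. Unadjusted p in limma was under 0.05 for 9 pathway genes, against 5 without the block. Over all genes these counts were 1976 and 1678. ARHGEF2 was no longer called (adjusted p = 0.0716 in limma, difference -1.47).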

Other observations

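The light chain of ferritin has pseudogenes too, and 4 were listed. FTLP3 alone reached 0.5 FPKM on average, at 7.59, 5.80 and 7.40 FPKM in shNC and 6.35, 7.09 and 5.78 FPKM in shARHGEF2, with overlapping groups and a log2 difference of -0.10 (standard error 0.13). It thus stood far below the FTH1 pseudogenes FTH1P2, FTH1P8 and FTH1P7, although FTL was nearly as abundant as FTH1. Of the 3 FTH1 pseudogenes under 0.5 FPKM, FTH1P19 was listed at 0.159, 0.129 and 0.0786 FPKM in shNC and at 0.0469, 0 and 0 FPKM in shARHGEF2, and FTH1P4 and FTH1P1 did not pass 0.161 FPKM in any library.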
